A study of Mus musculus with 6 samples.

Results

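The IL-1, IL-18 and IL-33 receptor family was examined as 8 of the 56748 genes in the deposited count table. The genes were picked by name, not by a threshold on their values, as receptors, decoys and antagonists of cytokines related to IL-1. These genes were chosen with earlier results of these data known. They are *Il1rl2*, *Il1rl1*, *Il1rap*, *Il18r1*, *Il18rap*, *Il1r2*, *Il1rn* and *Sigirr*. The counts come from RNA-seq of 6 unsorted CD4 cell cultures. CD4 cells are helper T cells, some of which become Tregs, the regulatory T cells that restrain immune responses. The study asked what an antisense oligonucleotide (ASO) against *Pgam*, which encodes the glycolytic enzyme phosphoglycerate mutase, does to these cells while they are driven towards the Treg state. Naïve CD4 cells came from spleen and lymph nodes of wild-type C57BL/6 mice aged 6 to 10 weeks and were isolated by negative selection, a step meant to remove other cell types. In both groups they were grown for 72 hr, given in the labels as 3 days, with IL-2 at 10 ng/mL, human TGF-β at 1 ng/mL, antibodies against IFNγ and IL-4 at 5 μg/mL each, plate-bound anti-CD3 at 2 μg/mL and soluble anti-CD28 at 2 μg/mL. A scrambled ASO was present at 10 μM in 3 cultures, and the *Pgam* ASO at 10 μM in the other 3. The cells were not sorted for FOXP3, so a library may mix cells that did and did not become Tregs.

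Receptors of this family share a signalling domain with Toll-like receptors. A ligand-binding chain takes up the cytokine, an accessory chain then joins it, and the pair recruits the adaptor MYD88 and IRAK kinases, which activate NF-κB. Signalling is held back by decoy receptors that bind ligand without passing on a signal, by a receptor antagonist that occupies the IL-1 receptor, and by SIGIRR, an inhibitory member of the family. In helper T cells IL-1 is known for promoting Th17 cells, IL-18 for promoting IFNγ production, and IL-33 for acting on Th2 cells and on tissue Tregs.

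Of the 8 members, 5 lie in a row on chromosome 1, with *Il1r1*, the signalling receptor for IL-1, among them. On the GRCm38 build and the GENCODE M21 annotation, *Il1r2* (ENSMUSG00000026073) spans chr1:40074079-40125231 and is followed by *Il1r1* (ENSMUSG00000026072) at chr1:40225080-40317257. Next come *Il1rl2* (ENSMUSG00000070942) at chr1:40324610-40367562 and *Il1rl1* (ENSMUSG00000026069) at chr1:40429570-40465415. The row ends with *Il18r1* (ENSMUSG00000026070) at chr1:40465552-40500854 and *Il18rap* (ENSMUSG00000026068) at chr1:40515362-40551705, all on the plus strand. *Il1rn* (ENSMUSG00000026981) lies at chr2:24336853-24351494 and *Il1rap* (ENSMUSG00000022514) at chr16:26581704-26730117, both on the plus strand, and *Sigirr* (ENSMUSG00000025494) at chr7:141091175-141100572 on the minus strand.

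Promoter sequences were found in the RefSeq table for 7 of the 8 members, *Sigirr* being the other one. They are shown for 4 genes of the row on chromosome 1, because the 3 genes in its middle were the ones whose libraries did not overlap between the groups, while *Il18rap* at its end is a neighbour whose libraries did. Each line gives the 250 bases before a RefSeq transcription start on GRCm38.p6, plus strand, and none of these 4 windows overlaps an annotated exon. They are chr1:40224830-40225079 for *Il1r1*, chr1:40324339-40324588 for *Il1rl2*, chr1:40429320-40429569 for *Il1rl1* and chr1:40515112-40515361 for *Il18rap*. Capitals mark matches to a searched motif on either strand, here only the GATA motifs AGATAA and TGATAA.
*Il1r1*: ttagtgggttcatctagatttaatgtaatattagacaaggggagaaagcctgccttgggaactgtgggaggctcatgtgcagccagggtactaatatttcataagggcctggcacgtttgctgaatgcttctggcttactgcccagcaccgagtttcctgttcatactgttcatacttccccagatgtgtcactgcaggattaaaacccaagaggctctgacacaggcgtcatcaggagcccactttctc
*Il1rl2*: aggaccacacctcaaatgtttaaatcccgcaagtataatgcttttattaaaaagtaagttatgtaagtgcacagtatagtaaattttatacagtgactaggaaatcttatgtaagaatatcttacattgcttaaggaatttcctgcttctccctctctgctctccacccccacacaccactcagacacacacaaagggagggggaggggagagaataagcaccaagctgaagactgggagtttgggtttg
*Il1rl1*: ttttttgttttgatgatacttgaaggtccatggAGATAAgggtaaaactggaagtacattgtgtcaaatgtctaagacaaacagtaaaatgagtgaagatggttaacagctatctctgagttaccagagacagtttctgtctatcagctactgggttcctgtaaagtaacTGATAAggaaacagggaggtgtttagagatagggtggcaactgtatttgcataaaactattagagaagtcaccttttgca
*Il18rap*: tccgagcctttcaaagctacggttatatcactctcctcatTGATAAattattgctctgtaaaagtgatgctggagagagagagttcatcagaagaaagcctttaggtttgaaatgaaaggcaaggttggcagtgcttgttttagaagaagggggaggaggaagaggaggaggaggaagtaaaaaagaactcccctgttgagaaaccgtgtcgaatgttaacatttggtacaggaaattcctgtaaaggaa
The *Il1rl1* window held AGATAA from base 34 and TGATAA from base 171, counted from its 5′ end, and no CG dinucleotide. The *Il18rap* window held TGATAA from base 41, and the windows of *Il1r1* and *Il1rl2* held none of the motifs searched. The other motifs were the AP-1 motif TGANTCA, the STAT motif TTCNNNGAA, the forkhead motif GTAAACA and the NF-κB consensus, and no match overlapped another in the windows printed. Among 32841 promoter windows of the same length, 9.99% held AGATAA, 7.94% TGATAA, 6.75% TGANTCA, 7.02% TTCNNNGAA, 3.17% GTAAACA and 7.25% the NF-κB consensus. A second start of *Il1r1*, with the window chr1:40266336-40266585, held the NF-κB consensus from base 19, and a start of *Il1rn*, with the window chr2:24336610-24336859, held TGANTCA from base 110. A second start of *Il1rl1*, with the window chr1:40439379-40439628, held GTAAACA from base 134 and AGATAA from base 148. A start of *Il18r1*, with the window chr1:40465756-40466005, held TTCNNNGAA from bases 32 and 99, and the start of *Il1r2*, with the window chr1:40085843-40086092, held TTCNNNGAA from base 140 and TGATAA from base 165. These 4 windows of *Il1rn*, *Il1rl1*, *Il18r1* and *Il1r2* overlap annotated exons, and the other windows not printed held none of the motifs. A match describes letters in the window and is not a site of binding. *Il1rl1* gives membrane-bound and soluble forms of the IL-33 receptor and *Il1rn* intracellular and secreted forms of the antagonist, and counts per gene do not separate these forms.

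The scrambled ASO libraries summed to 17588755, 18032805 and 16231127 counts in replicate order, and the *Pgam* ASO libraries to 16589933, 15860476 and 16803881. Levels are given as CPM, counts relative to the library total after TMM scaling, which adjusts the totals for composition. At these depths 3 counts, taken as the least that can be told from none, equal 0.162 to 0.192 CPM, a bound that covers counting error only. The targeted genes were examined first. *Pgam1* was at 599.6, 478 and 707 CPM with the scrambled ASO and at 658, 661 and 707 CPM with the *Pgam* ASO, and *Pgam2* at 5.23, 6.75 and 2.85 against 2.98, 2.69 and 2.60 CPM. Tested in edgeR by quasi-likelihood, with p-values adjusted over 14936 genes after Benjamini and Hochberg, *Pgam1* gave a log2 fold change of 0.18 (adjusted p = 0.331) and *Pgam2* one of -0.84 (adjusted p = 0.0854). Neither passed the threshold of 0.05, so the groups are named by their labels throughout.

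Across the family, *Il1rl2* rose, *Sigirr* and *Il1rn* fell, and the other 5 members did not pass the test. That is 3 of 8 members called, against 17.2% of the 14936 genes tested. By direction, 1 member was higher in the libraries labelled *Pgam* ASO, against 8.03% of all genes tested, and 2 were lower, against 9.15%. The libraries of the groups did not overlap for 4 members, against 39.5% of all genes tested. All 8 members had enough counts to be tested, and each passed the filter on low counts in both groups. The median log2 fold change of the members was -0.12, beside -0.0061 for all genes tested. The study calls the libraries of a group biological replicates, but the sources used here do not say whether each culture came from a separate mouse, and p-values measure the spread between these cultures. In bulk RNA, fewer cells of a type and less RNA per cell cannot be told apart. Over all genes the number called was 2565 with all libraries, 391 without replicate 2 of the *Pgam* ASO and 620 without replicate 1 of the scrambled ASO.

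**Figure D1:**
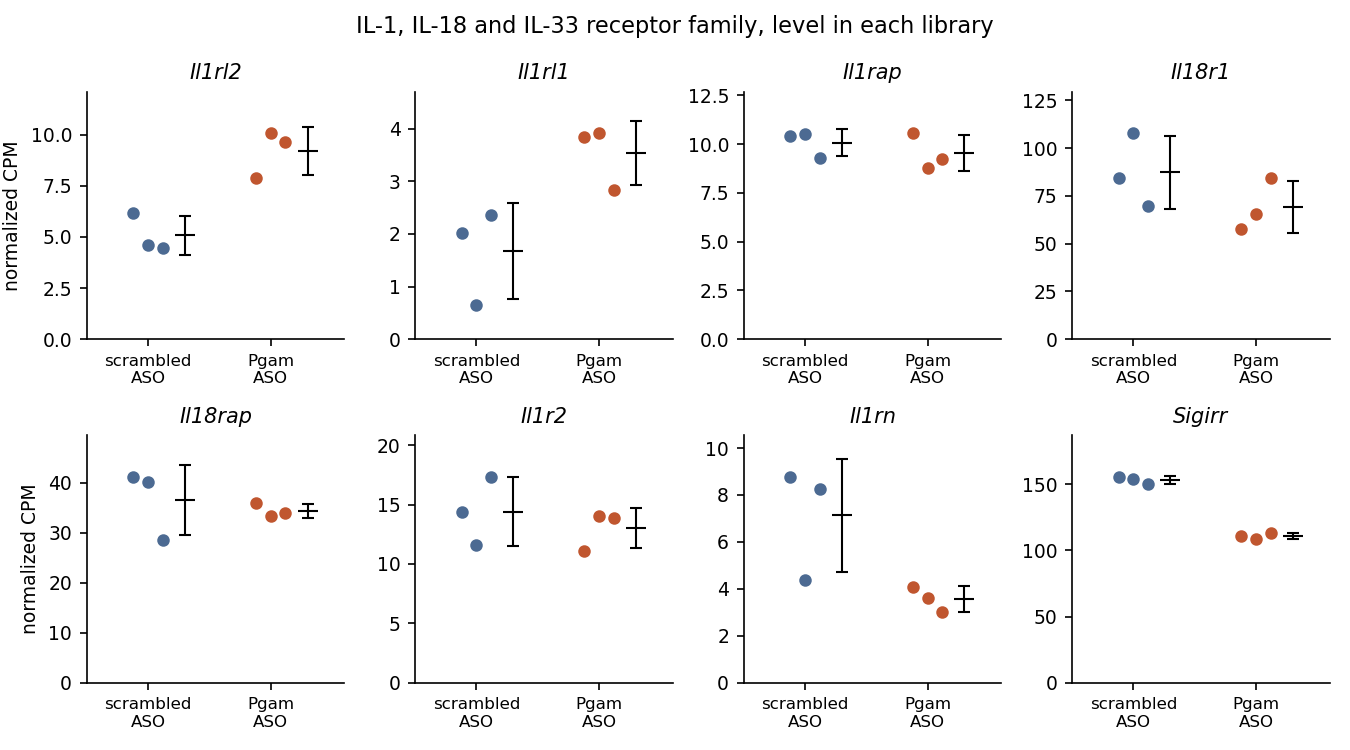
Level of each family member in each library, in normalized CPM on axes that start at 0, with 3 libraries labelled scrambled ASO (blue) and 3 labelled *Pgam* ASO (orange) in replicate order. The bar beside each group is the mean with 1 SD (n = 3); the groups are apart for *Il1rl2*, *Il1rl1*, *Il1rn* and *Sigirr* and overlap for the other 4 genes.

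*Il1rl2* encodes the ligand-binding chain of the IL-36 receptor. Its counts were 110, 85 and 72 with the scrambled ASO and 127, 157 and 163 with the *Pgam* ASO, or 6.19, 4.59 and 4.46 CPM against 7.89, 10.1 and 9.64 CPM. Each *Pgam* ASO library was above each scrambled one. The mean went from 5.08 ± 0.963 to 9.20 ± 1.16 CPM (SD, n = 3 each), 1.81 times higher. The log2 fold change was 0.86 with a standard error of 0.20 and a 95% interval from 0.40 to 1.31 (edgeR adjusted p = 0.0225). Its call was lost without replicate 2 of the scrambled ASO, where edgeR's adjusted p was 0.0545, and without replicate 2 of the *Pgam* ASO, where it was 0.111, within a range from 0.0333 to 0.111 over the 6 libraries left out in turn. With a block for replicate number the call of *Il1rl2* was lost too (edgeR adjusted p = 0.0584).

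*Il1rl1* encodes ST2, the receptor for IL-33, and had the lowest counts among the 8 members. It was counted 36, 12 and 38 times with the scrambled ASO and 62, 61 and 48 times with the *Pgam* ASO, or 2.03, 0.648 and 2.35 CPM against 3.85, 3.91 and 2.84 CPM. Here too the groups did not overlap, although replicate 2 of the scrambled ASO stood well under the other 2 and replicate 3 of the *Pgam* ASO came close to the highest scrambled library. The mean was 1.68 ± 0.905 and 3.53 ± 0.602 CPM (SD, n = 3 each), and the log2 fold change 1.08 with a standard error of 0.41 and a 95% interval from 0.18 to 1.99. With an adjusted p of 0.0893 in edgeR it was not called. Left out in turn, the libraries gave adjusted p from 0.0456 to 0.237, and the 0.0456 came without replicate 3 of the scrambled ASO. Without any filter on low counts edgeR called *Il1rl1* at an adjusted p of 0.0126.

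*Il1rap* encodes the accessory chain that IL-1, IL-33 and IL-36 receptors share. Its level was 10.4, 10.5 and 9.29 CPM with the scrambled ASO and 10.6, 8.79 and 9.23 CPM with the *Pgam* ASO, from between 137 and 195 counts a library. The groups overlapped. Of its 31-base transcript stretches 4.33% are shared with *Gm20319*, which overlaps it, the highest share of any member. The log2 fold change was -0.08 with a 95% interval from -0.42 to 0.26 (edgeR adjusted p = 0.741). Set against each other per kb of transcript, *Il1rap* over *Il1rl2* gave 1.45, 1.98 and 1.80 with the scrambled ASO and 1.16, 0.755 and 0.828 with the *Pgam* ASO. This ratio, chosen after the values were seen and not tested, was lower in each *Pgam* ASO library than in each scrambled one.

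*Il1r1*, the signalling receptor for IL-1, is not among the 8 members but stands between them on the chromosome. It was close to the limit of the depth, with 5, 10 and 9 counts against 39, 15 and 24, or 0.281, 0.540 and 0.558 CPM against 2.42, 0.962 and 1.42 CPM. It passed the filter on low counts only through the *Pgam* ASO libraries. Its log2 fold change was 1.79 with a standard error of 0.48 (edgeR adjusted p = 0.0325). With a block for replicate number the call of *Il1r1* was lost (edgeR adjusted p = 0.079). Left out in turn, the libraries gave a log2 fold change from 1.37 to 2.05 and an adjusted p from 0.0367 to 0.139; the call was lost without replicate 1 (0.115) or 2 (0.0621) of the scrambled ASO and without replicate 1 (0.139) or 2 (0.069) of the *Pgam* ASO. The other 2 receptors listed with it, *Il1rapl1* and *Il1rapl2*, had 0 counts in all 6 libraries, which allows up to 0.192 CPM.

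The IL-18 receptor has a ligand-binding chain, encoded by *Il18r1*, and an accessory chain, encoded by *Il18rap*, and both overlapped between the groups. *Il18r1* was at 84.5, 108 and 69.6 CPM with the scrambled ASO and at 57.5, 65.7 and 84.3 CPM with the *Pgam* ASO. Its spread within each group was wide, and replicate 3 of the *Pgam* ASO lay near replicate 1 of the scrambled ASO. The mean was 87.3 ± 19.3 against 69.1 ± 13.7 CPM (SD, n = 3 each), with a log2 fold change of -0.34, a 95% interval from -0.74 to 0.07 and an edgeR adjusted p of 0.216. With no filter on low counts its adjusted p in edgeR was 0.0221. *Il18rap* was at 41.2, 40.1 and 28.4 CPM against 35.9, 33.3 and 33.9 CPM. The scrambled library with the lowest *Il18rap* level, replicate 3, also had the lowest *Il18r1* level of its group. The log2 fold change of *Il18rap* was -0.09, with a 95% interval from -0.40 to 0.22 (edgeR adjusted p = 0.677). Per kb of transcript the ratio of *Il18r1* to *Il18rap* was 2.41, 3.16 and 2.88 with the scrambled ASO and 1.88, 2.32 and 2.92 with the *Pgam* ASO, a description made after the values were seen in which the groups overlapped.

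*Il1r2* encodes the decoy receptor that captures IL-1. It was at 14.3, 11.6 and 17.3 CPM with the scrambled ASO and at 11.1, 14.1 and 13.9 CPM with the *Pgam* ASO, from between 178 and 280 counts a library. The groups overlapped, and the log2 fold change was -0.15 with a 95% interval from -0.54 to 0.24 (edgeR adjusted p = 0.585). Without replicate 3 of the scrambled ASO the log2 fold change was 0.0084. Beside the signalling receptor, the decoy was the far more abundant transcript in all 6 libraries. The ratio of *Il1r2* to *Il1r1*, per kb of transcript, was 209, 87.8 and 128 with the scrambled ASO and 18.7, 59.9 and 40.1 with the *Pgam* ASO. This ratio, also chosen after the values were seen and not tested, rests on the few counts of *Il1r1*.

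*Il1rn* encodes the IL-1 receptor antagonist. It was counted 156, 81 and 133 times with the scrambled ASO and 66, 56 and 51 times with the *Pgam* ASO, or 8.78, 4.37 and 8.24 CPM against 4.10, 3.59 and 3.02 CPM. The groups did not overlap, but replicate 2 of the scrambled ASO was nearer to the *Pgam* ASO libraries than to the other 2 of its own group. The mean went from 7.13 ± 2.40 to 3.57 ± 0.541 CPM (SD, n = 3 each), 1.99 times lower, with a log2 fold change of -0.995, a standard error of 0.28 and a 95% interval from -1.63 to -0.36 (edgeR adjusted p = 0.0397). The call was kept without replicate 2 of the scrambled ASO (adjusted p = 0.00816) and lost when any of the other 5 libraries was left out. Those 5 adjusted p were 0.145 and 0.071 without replicates 1 and 3 of the scrambled ASO, and 0.078, 0.135 and 0.0764 without replicates 1, 2 and 3 of the *Pgam* ASO. In limma-voom the adjusted p of *Il1rn* was 0.0648, and in edgeR with a block for replicate number it was 0.0686.

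*Sigirr* encodes the inhibitory receptor that dampens signals from the IL-1, IL-18 and IL-33 receptors, and it was the most counted member. Its counts were 2764, 2843 and 2420 with the scrambled ASO and 1786, 1689 and 1908 with the *Pgam* ASO, or 156, 154 and 149.9 CPM against 111, 108 and 113 CPM. The 3 libraries of a group lay close together, and the gap between the groups was many times their spread. The mean went from 153 ± 2.83 to 111 ± 2.27 CPM (SD, n = 3 each), 1.38 times lower. The log2 fold change was -0.47 with a standard error of 0.07 and a 95% interval from -0.63 to -0.30 (edgeR adjusted p = 0.00503). With each library left out in turn *Sigirr* was called in all 6 fits, at adjusted p from 0.00617 to 0.0495.

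**Figure D2:**
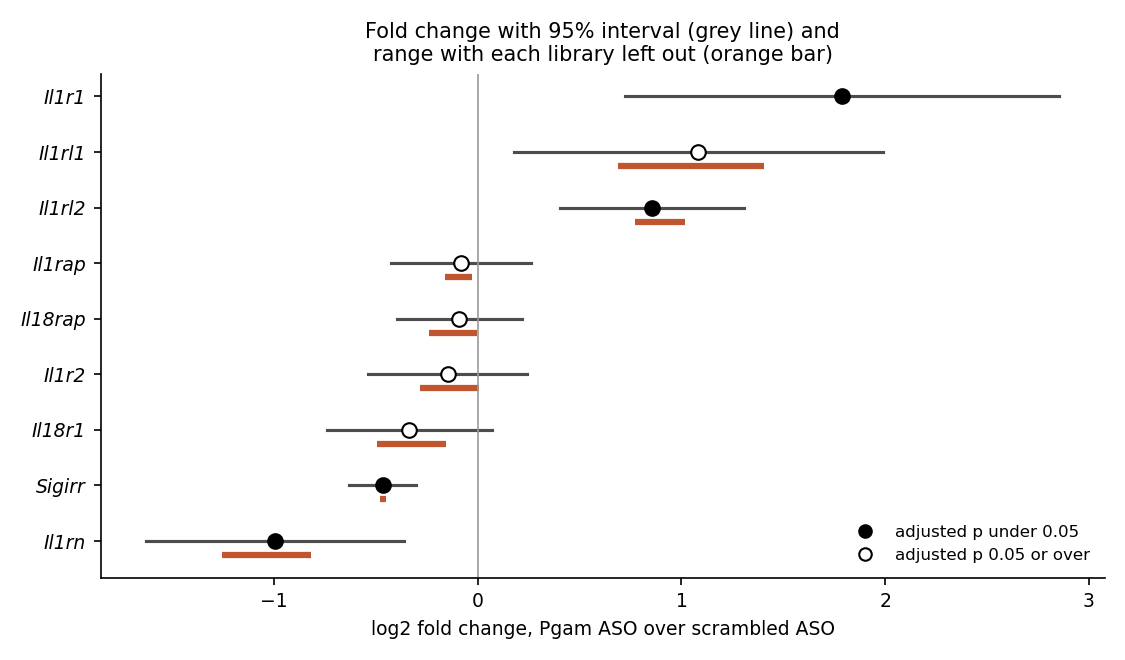
Log2 fold change of each member and of *Il1r1*, *Pgam* ASO over scrambled ASO (n = 3 each), with filled points for an edgeR adjusted p under 0.05. Grey lines are 95% intervals and orange bars, drawn for the 8 members, run from the lowest to the highest value with each library left out; *Sigirr* has the shortest bar, from -0.48 to -0.45.

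Levels of different genes were compared per kb of the longest coding transcript, as CPM per kb. With the scrambled ASO the order, from high to low, was *Sigirr* (76.9 ± 1.42), *Il18r1* (20.99 ± 4.63), *Il1r2* (10.2 ± 2.04), *Il18rap* (7.48 ± 1.44), *Il1rn* (2.88 ± 0.971), *Il1rap* (2.23 ± 0.151), *Il1rl2* (1.30 ± 0.246), *Il1rl1* (0.316 ± 0.171) and *Il1r1* (0.0790 ± 0.0266), each as mean and SD of CPM per kb over 3 libraries. The inhibitory receptor thus stood at the top, the IL-1 decoy between the chains of the IL-18 receptor, and the signalling receptors for IL-33 and IL-1 at the bottom. Neighbours in this order whose libraries overlapped were *Il1r2* with *Il18rap* and *Il1rn* with *Il1rap*. With the *Pgam* ASO the first 4 places were the same, at 55.6 ± 1.14 for *Sigirr*, 16.6 ± 3.30 for *Il18r1*, 9.16 ± 1.19 for *Il1r2* and 7.03 ± 0.278 for *Il18rap*, all CPM per kb. *Il1rl2* (2.35 ± 0.296) moved from place 7 to place 5 and *Il1rn* (1.44 ± 0.219) from place 5 to place 7, on either side of *Il1rap* (2.11 ± 0.204), while *Il1rl1* (0.667 ± 0.114) and *Il1r1* (0.275 ± 0.128) stayed last. In that group the libraries of *Il1rl2* and *Il1rap* overlapped and those of the other neighbours did not. The order was the same with the mean length of the coding transcripts.

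**Figure D3:**
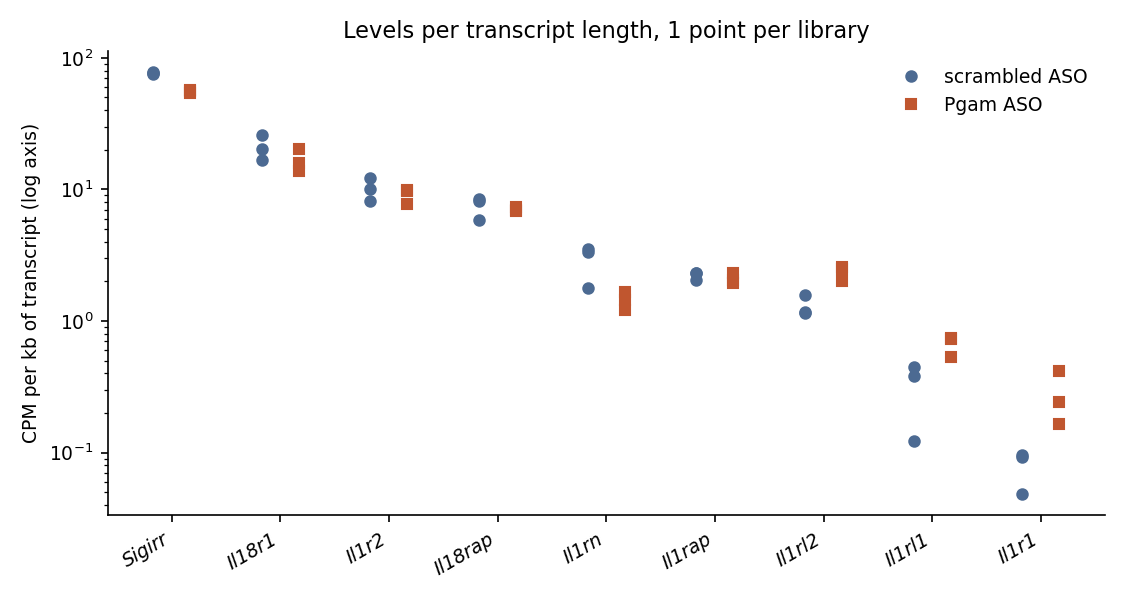
Level of each member and of *Il1r1* in CPM per kb of the longest coding transcript, on a log axis, with 1 point per library (blue circles, scrambled ASO; orange squares, *Pgam* ASO; n = 3 each). From *Sigirr* at 76.9 to *Il1r1* at 0.0790 CPM per kb in the scrambled group, the genes are sorted by that group's mean.

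The row of receptor genes on chromosome 1 spans 477627 bases and holds 10 genes of the table, of which 7 were tested and 2, *Il1r1* and *Il1rl2*, were called, against 17.2% of all genes tested. *Il1r1* passed the filter only through the *Pgam* ASO libraries, so the count rests in part on that filter. With a library left out the count ran from 0, without replicate 2 of either group, to 3, without replicate 3 of the scrambled ASO. With a block for replicate number it was 0. In chromosomal order the log2 fold changes were -0.15 for *Il1r2*, 1.79 for *Il1r1*, 0.86 for *Il1rl2*, 1.08 for *Il1rl1*, -0.34 for *Il18r1* and -0.09 for *Il18rap*. The 3 receptor genes in the middle had positive values and groups that did not overlap, and those on either side had negative values and groups that did, with *Il1r2* at 0.0084 without replicate 3 of the scrambled ASO. Groups that did not overlap were found for 39.5% of all genes tested, beside 3 of the 7 here. No test over neighbouring genes was made. The antisense gene *Gm16894*, which lies within *Il1r2* on the other strand, had a log2 fold change of 0.51, with an adjusted p of 0.441 in edgeR from 63 counts in all. Their annotated exons do not overlap, and *Il1r2* shared 0 of its 1900 transcript stretches of 31 bases with other genes. *Gm37347* and *Gm17970*, with 26 and 16 counts in all, were too low to test, and *Gm38070* had 0 counts. Of the 5 nearest tested genes before the row, *Map4k4*, which encodes a kinase, fell from 357 ± 16.5 to 280 ± 7.24 CPM (SD, n = 3 each; log2 fold change -0.35, edgeR adjusted p = 0.0184). The 5 nearest tested genes after it gave adjusted p from 0.172 for *Fhl2* to 0.779 for *Mrps9*.

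**Figure D4:**
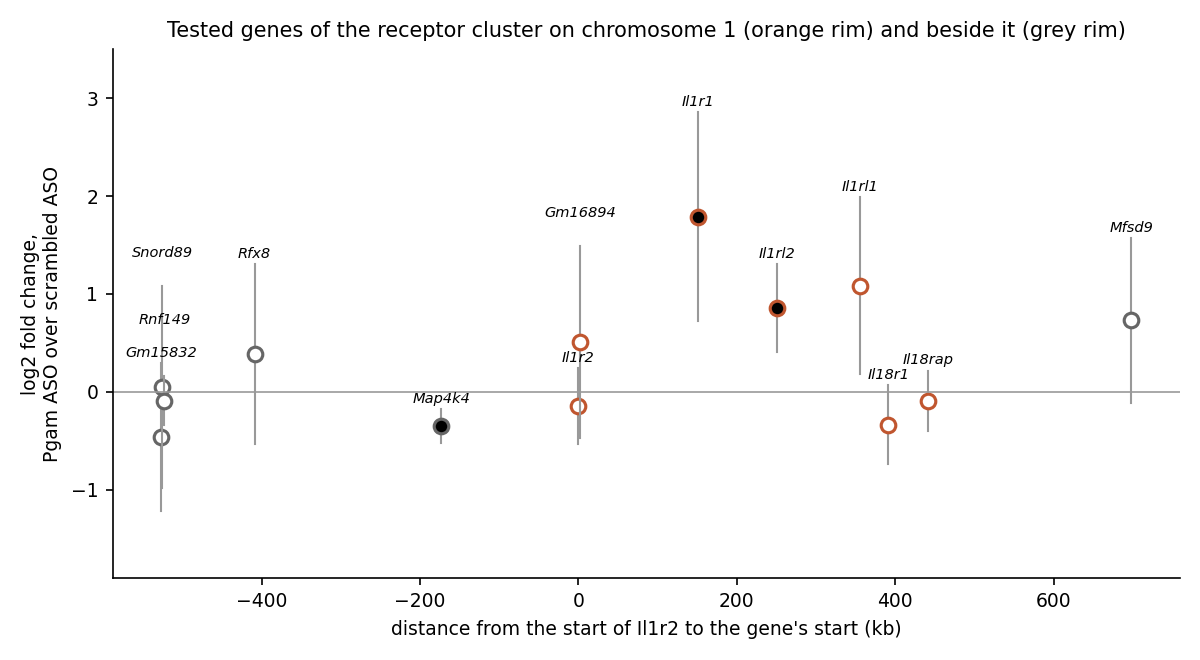
Log2 fold change with 95% interval, *Pgam* ASO over scrambled ASO (n = 3 each), of tested genes by the distance of their start from that of *Il1r2* in kb, with orange rims for the row of receptor genes, grey rims for genes beside it and filled points for an edgeR adjusted p under 0.05. The 4 genes farthest after the row are outside the range drawn; *Il1r1*, *Il1rl2* and *Il1rl1* lie next to each other above 0.

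The ligands were scarce in these cultures. Of 10 listed genes, ligands of the family and the soluble IL-18 binding protein, 4 had 0 counts in all libraries and 4 had enough counts to be tested. None of the 4 was called by edgeR, DESeq2 or limma-voom, and 1 had an unadjusted p under 0.05 in edgeR. That gene was *Il18*, with 23, 35 and 15 counts with the scrambled ASO and 6, 7 and 12 with the *Pgam* ASO (log2 fold change -1.41, edgeR adjusted p = 0.0530), and it passed the filter only through the scrambled libraries. It was called in edgeR without a filter (adjusted p = 0.0425), without replicate 3 of the scrambled ASO (0.0352) and without replicate 3 of the *Pgam* ASO (0.0447), and adjusted p over the libraries left out ran up to 0.197. *Il33*, whose receptor is *Il1rl1*, was counted 4, 2 and 3 times against 0, 0 and 3 times and was not tested. The IL-1 gene *Il1a* passed the filter in both groups, at 2.30 ± 1.14 and 2.77 ± 1.42 CPM (SD, log2 fold change 0.27, edgeR adjusted p = 0.723). The IL-1 gene *Il1b* had 3, 12 and 11 against 11, 17 and 5 counts (log2 fold change 0.46, edgeR adjusted p = 0.637). *Il18bp*, the most abundant gene of this list, was at 7.77 ± 2.37 and 6.89 ± 0.798 CPM (SD, n = 3 each; log2 fold change -0.17, edgeR adjusted p = 0.635). Among 10 proteases and inflammasome genes that release the ligands, 6 were tested and 1 was called, against 17.2% of all genes tested. It was *Casp8*, which rose from 145 ± 4.27 to 194 ± 9.78 CPM (log2 fold change 0.43, edgeR adjusted p = 0.0098). The call of *Casp8* was lost without replicate 1 of the scrambled ASO (adjusted p = 0.0631) and without replicate 2 of the *Pgam* ASO (adjusted p = 0.0721).

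Below the receptors, 18 adaptors, kinases and ubiquitin ligases were listed and all were tested. Of these, 3 fell and 15 did not pass, with a median log2 fold change of -0.07. That is 3 of 18 called, against 17.2% of all genes tested in either direction and 9.15% that fell. *Peli2*, a ubiquitin ligase that acts on IRAK kinases, fell from 10.7 ± 0.656 to 4.08 ± 0.668 CPM (SD, n = 3 each; log2 fold change -1.39, edgeR adjusted p = 0.00235). *Irak2*, a kinase of the receptor complex, fell from 51.3 ± 2.59 to 37.3 ± 3.58 CPM (log2 fold change -0.46, edgeR adjusted p = 0.0175). *Map3k3* fell from 78.6 ± 7.45 to 63.7 ± 1.78 CPM (log2 fold change -0.30, edgeR adjusted p = 0.0483). The adaptor gene *Myd88*, which serves all signalling receptors of the family, was at 44.3 ± 2.58 and 48.3 ± 5.73 CPM and was not called (edgeR adjusted p = 0.437). *Tab2*, the most abundant gene of the list, was at 260 ± 5.87 and 283 ± 13.6 CPM and was not called either (edgeR adjusted p = 0.288). With each library left out in turn, *Peli2* was called in all 6 fits, and *Irak2* and *Map3k3* were each lost in some. *Map3k3* was also lost in DESeq2 (adjusted p = 0.0555), in limma-voom (0.0538), and in edgeR with RLE size factors (0.0504), without a filter (0.0519) or with a block for replicate number (0.111). Without a filter edgeR also called *Ube2n*, which rose (log2 fold change 0.31, adjusted p = 0.0236). The same setting called *Irak3*, which fell (log2 fold change -1.16, adjusted p = 0.0499).

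NF-κB subunits, kinases, inhibitors and feedback genes made up a list of 15, all tested, of which 7 fell and 8 did not pass, against 9.15% of all genes tested that fell, with a median log2 fold change of -0.23. *Rel*, which encodes the subunit c-Rel, fell from 167 ± 5.55 to 98.0 ± 7.58 CPM (SD, n = 3 each; log2 fold change -0.77, edgeR adjusted p = 0.000967). The feedback inhibitor genes *Tnfaip3* and *Tnip1*, which encode A20 and its partner, had log2 fold changes of -0.58 and -0.45 (edgeR adjusted p = 0.00813 and 0.00599). *Nfkbiz* and *Nfkbie*, of the inhibitor family, had log2 fold changes of -0.62 and -0.31 (edgeR adjusted p = 0.0159 and 0.0451). The subunit genes *Relb* and *Rela* had -0.30 and -0.28 (edgeR adjusted p = 0.0366 and 0.0407). The genes that fell thus include both activating subunits and inhibitors of the pathway. *Nfkb1*, the most abundant of the list, was at 651 ± 23.2 and 646 ± 20.4 CPM and was not called. Of the 7, *Rel* alone was called in all 6 fits with a library left out. Without a filter on low counts 4 of the list were called, and *Rela* (adjusted p = 0.0696), *Relb* (0.0683) and *Nfkbie* (0.0577) were not. A block for replicate number also ended the edgeR calls of *Rela* (adjusted p = 0.106), *Relb* (0.0947) and *Nfkbie* (0.106).

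Of 18 transcription factors of helper T cell lineages, all tested, 3 rose and 5 fell, against 8.03% and 9.15% of all genes tested, with a median log2 fold change of -0.23. *Gata3*, the defining factor of Th2 cells, rose from 48.5 ± 13.2 to 90.2 ± 19.7 CPM (SD, n = 3 each; log2 fold change 0.89, edgeR adjusted p = 0.0321). *Pparg*, known in Th2 cells and tissue Tregs, rose with a log2 fold change of 1.99, with an adjusted p of 0.00287 in edgeR, and *Batf*, a partner of AP-1 factors, with 0.75 (edgeR adjusted p = 0.0108). *Foxp3*, the defining factor of Tregs, fell from 291 ± 74.7 to 110 ± 20.6 CPM (log2 fold change -1.41, edgeR adjusted p = 0.00567). *Bach2*, *Rora*, *Maf* and *Ikzf2* were the others that fell, with log2 fold changes of -1.01, -0.64, -0.61 and -0.57 (edgeR adjusted p = 0.00173, 0.00713, 0.00779 and 0.0484). *Irf4* was the most abundant at 520 ± 117 and 819 ± 158 CPM, and its edgeR adjusted p of 0.0507 missed the threshold narrowly. *Irf4* was called in DESeq2 (adjusted p = 0.00169) and in edgeR without a filter (5.92e-07), with RLE size factors (0.0498), with library size alone (0.0498) and with at least 10 counts in every library (0.0491), but not in limma-voom (0.051). *Foxp3*, *Maf*, *Pparg* and *Bach2* were called in all 6 fits with a library left out, and the other 4 were not, with *Gata3* at adjusted p from 0.0197 to 0.102. A block for replicate number ended the edgeR call of *Ikzf2* (adjusted p = 0.0745) and left *Irf4* uncalled (0.0618).

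Cytokines made by helper T cells that receive these signals formed a list of 11, of which 9 were tested, 6 rose and 3 did not pass, against 8.03% of all genes tested that rose, with a median log2 fold change of 2.37. *Il13*, a product of Th2 cells under IL-33 and the most abundant of the list with the *Pgam* ASO, rose from 7.35 ± 3.55 to 99.4 ± 48.9 CPM (SD, n = 3 each; log2 fold change 3.77, edgeR adjusted p = 0.0131). *Il5* rose from 0.499 ± 0.0631 to 10.4 ± 4.61 CPM (log2 fold change 4.37, edgeR adjusted p = 0.000401) and passed the filter only through the libraries labelled *Pgam* ASO. The count of 6 that rose thus rests in part on that filter. *Csf2*, *Il4*, *Il9* and *Il17a* had log2 fold changes of 3.09, 2.72, 2.37 and 2.02 (edgeR adjusted p = 0.00139, 0.000953, 0.022 and 0.0073). *Ifng*, a product of cells that receive IL-18, had a log2 fold change of 1.47 and did not pass (edgeR adjusted p = 0.0953). *Areg* and *Il22* were too low to test. *Il22* had 4, 2 and 4 counts against 23, 17 and 5, which did not overlap in CPM, and edgeR without a filter gave it a log2 fold change of 2.25 (adjusted p = 0.0106). The same setting lost the call of *Il9* (adjusted p = 0.101). *Il5*, *Il4*, *Il17a* and *Csf2* were called in all 6 fits with a library left out, and *Il13* and *Il9* were not. *Il9*, *Il17a*, *Il22* and *Foxp3* belong to genes the study itself displayed from these libraries, so their directions are not independent evidence. The other genes of the lists come from the same 6 libraries, and the lists were chosen with earlier results of these data known. Their directions and the counts of calls are therefore not independent evidence either.

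**Figure D5:**
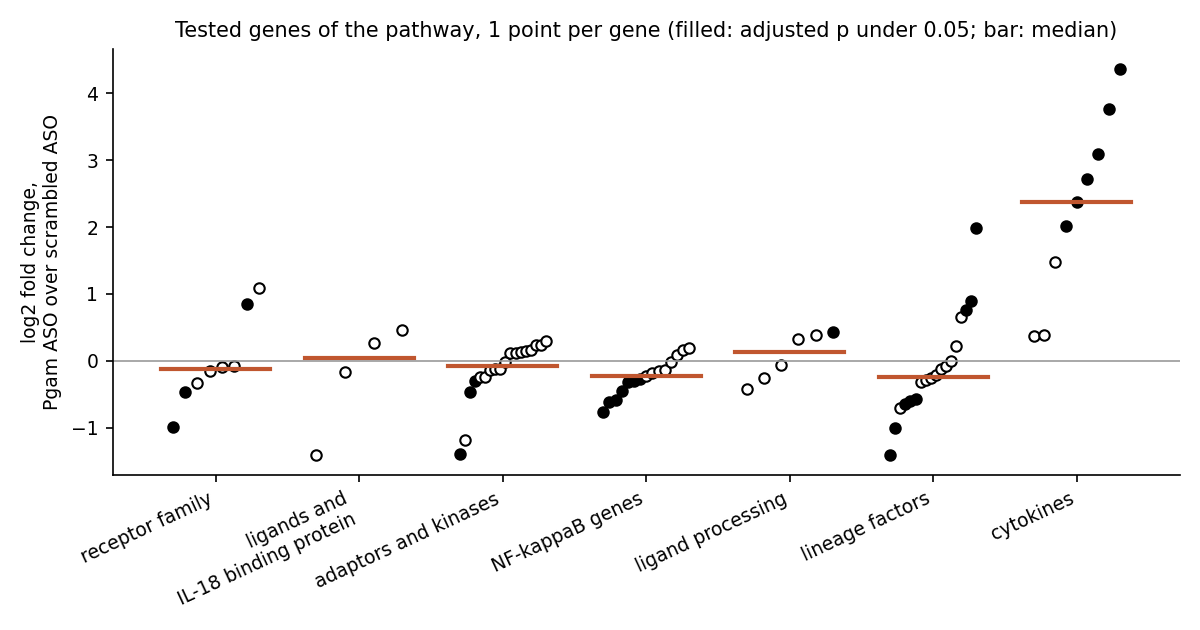
Log2 fold change, *Pgam* ASO over scrambled ASO (n = 3 each), of every tested gene of the family and of 6 lists around it, with filled points for an edgeR adjusted p under 0.05 and orange bars for each list's median. The family's median is -0.12 and that of the cytokines 2.37.

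Markers of the labelled cell type and of other cells were read in the same libraries, although negative selection before culture was meant to remove the other cells. Of 10 genes of CD4 T cells, all tested, *Cd28*, *Cd5* and *Trac* fell, with log2 fold changes of -0.66, -0.49 and -0.30 (edgeR adjusted p = 0.00183, 0.0193 and 0.0416), and 7 did not pass, with *Lck* at a log2 fold change of 0.07. DESeq2 called 5 of these genes, and edgeR without a filter also called *Cd3e* (adjusted p = 0.0047), *Cd3g* (0.0112) and *Trbc1* (0.0277). Calls in this and the other marker lists stand against 17.2% of all genes tested, with 8.03% higher and 9.15% lower. *Cd4* was the most abundant at 770 ± 36.2 and 666 ± 26.6 CPM (SD, n = 3 each). For 9 of the 10 genes the groups did not overlap, against 39.5% of all genes tested, and 9 had an unadjusted p under 0.05 in edgeR. The list summed to 3889, 4246 and 3642 CPM with the scrambled ASO and to 3107, 3226 and 3345 CPM with the *Pgam* ASO, the same direction as *Sigirr*. The part of these genes in the lower *Sigirr* was not tested.

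*Il1rl1* is also expressed by mast cells and basophils, whose list had 11 genes, of which 4 were tested, *Gata2* rose (log2 fold change 1.59, edgeR adjusted p = 0.0469) and *Kit* fell (log2 fold change -1.68, edgeR adjusted p = 0.0142). *Gata2* passed the filter only through the libraries labelled *Pgam* ASO. Its call was lost in limma-voom (adjusted p = 0.0692) and in edgeR with library size alone (0.0505) or with a block for replicate number (0.0777). The list summed to 8.67, 8.75 and 9.17 CPM against 9.63, 9.11 and 8.05 CPM, and without *Kit*, its most abundant gene over all libraries, to 3.38, 3.35 and 3.16 CPM against 8.70, 7.64 and 5.27 CPM. *Cpa3*, the most abundant of the rest, had 17, 28 and 12 counts against 41, 35 and 36, which did not overlap in CPM, and did not pass (edgeR adjusted p = 0.0526, log2 fold change 1.09). It was called in limma-voom (adjusted p = 0.0464) and in edgeR without a filter (0.0399), with at least 10 counts in every library (0.0411) and without replicate 2 of the scrambled ASO (0.0415). It was not called in DESeq2 (0.059) or in edgeR with RLE size factors (0.0516), library size alone (0.0626) or a block for replicate number (0.0873). With any other library left out it was not called either, at edgeR adjusted p up to 0.157. Other defining markers had fewer counts, with *Mcpt8* at 0, 2 and 3 against 16, 11 and 5 counts, *Fcer1a* at 0, 2 and 0 against 4, 8 and 6 counts, and *Mcpt4* at 0 in all libraries. The sum without *Kit* thus lay in the direction of *Il1rl1*, as did *Cpa3*, *Gata2*, *Mcpt8* and *Fcer1a*. *Kit* itself, the most abundant gene of the list and called lower, went the other way, and with it the sums of the groups overlapped. *Prss34* (1, 1 and 4 against 0, 1 and 0 counts) and *Tpsb2* (1, 7 and 0 against 3, 0 and 0 counts) did not lie in the direction of *Il1rl1* either. Negative selection was meant to remove such cells before culture, and the part of these genes in the values of *Il1rl1* was not tested. The 4 eosinophil genes, with *Siglecf* the most abundant, were too low to test and summed to 0.394, 0.378 and 0.186 CPM against 0.373, 0.449 and 0.533 CPM.

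*Il1rn* is known chiefly from myeloid cells and neutrophils. Of 10 genes of macrophages, monocytes and dendritic cells, 4 were tested and *Cd74* fell (log2 fold change -0.59, edgeR adjusted p = 0.00828). Their sum was 165, 137 and 174 CPM against 113, 101 and 107 CPM, nearly all of it *Cd74*, which B cells and activated T cells also express, and 8.55, 9.18 and 8.80 against 6.77, 6.35 and 7.99 CPM without it. Of that remainder *Cd68* was the most abundant and fell from 5.12, 5.29 and 6.38 to 3.35, 3.46 and 4.44 CPM, without overlap and without passing (log2 fold change -0.57, edgeR adjusted p = 0.0933), while *Lyz2* was higher without overlap, at 1.15 ± 0.253 against 1.48 ± 0.116 CPM (SD, n = 3 each; log2 fold change 0.35, edgeR adjusted p = 0.481). The defining marker *Csf1r* had 3, 2 and 0 against 4, 1 and 5 counts, and *Adgre1* 9, 9 and 8 against 6, 7 and 13 counts. The 7 neutrophil genes summed to 2.81, 1.40 and 1.05 CPM against 3.85, 2.82 and 2.60 CPM, with *S100a9* the most abundant; 2 were tested, and none of them was called by edgeR, DESeq2 or limma-voom or had an unadjusted p under 0.05. Of 6 B cell genes *Ighm* fell (log2 fold change -1.58, edgeR adjusted p = 0.0282), and their sum was 329, 458 and 222 CPM against 85.3, 120 and 149.9 CPM. The part of these cells, which negative selection was meant to remove, in the lower *Il1rn* was not tested.

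Other cell types were read in the same way. Of 6 NK cell genes 2 were tested, and *Eomes*, which T cells also express, fell (log2 fold change -0.82, edgeR adjusted p = 0.0214); the list summed to 55.1, 34.6 and 57.5 CPM against 34.7, 31.3 and 26.9 CPM, most of it *Eomes*, with *Klrb1c* and *Klra8* at 0 in all libraries. Without *Eomes* the sum went the other way, from 2.64, 2.48 and 2.48 CPM to 6.46, 4.43 and 2.78 CPM. Of the 2 CD8 T cell genes *Cd8a* rose (log2 fold change 1.12, edgeR adjusted p = 0.0286) and *Cd8b1*, the more abundant, did not pass (log2 fold change -0.20, edgeR adjusted p = 0.454), and they summed to 11.3, 13.5 and 10.8 CPM against 14.6, 10.9 and 15.7 CPM. Of 5 erythroid genes 2 were tested, none was called by edgeR, DESeq2 or limma-voom or had an unadjusted p under 0.05, *Alas2* was the most abundant, and they summed to 2.70, 2.16 and 1.55 CPM against 1.55, 2.12 and 2.49 CPM. The part of these genes in the values of the family was not tested. Of the called markers of all cell types, *Cd28* alone was called in all 6 fits with a library left out. A block for replicate number ended the edgeR calls of *Trac* (adjusted p = 0.1), *Cd8a* (0.0699) and *Ighm* (0.0539), as it did for *Gata2*.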

How the data were processed

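RNA of the 6 cultures was taken as polyadenylated RNA and sequenced. The authors deposited estimated counts from Kallisto per Ensembl gene and library, in whole numbers and without normalization, so no rounding was needed here. The submitters' processing notes name GRCm38; the Kallisto version, the annotation and the use of strand are not given in the sources used here. Of 56748 gene identifiers, 52125 were found in GENCODE M21, which gave positions and transcript lengths. No member shared more than 4.33% of its 31-base transcript stretches with other genes.

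The counts were compared in edgeR 4.0.16 (R 4.3.3). After filterByExpr with default settings, 14936 genes remained, which were TMM-scaled and tested by robust quasi-likelihood. Tests were two-sided, p-values were adjusted over all genes tested (Benjamini-Hochberg), and the threshold was 0.05. Alternatives were DESeq2 1.42.0, limma-voom (limma 3.58.1), RLE size factors, library size alone, no filter, a block for replicate number, a minimum of 10 counts in each library, an adjusted p under 0.01 and each library left out in turn.

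Members and lists were chosen with earlier results of these data known. Named genes are the members, *Pgam1* and *Pgam2*, the genes of the chromosome 1 row, the called genes of each list (at most the 6 with the largest absolute log2 fold change) with its most abundant gene, and the 3 genes most correlated with each member. *Rela*, *Maf* and *Ikzf2*, called beyond those 6, and *Il1r1*, *Il1a*, *Il1b*, *Il18*, *Il22*, *Il33*, *Areg*, *Myd88*, *Ube2n*, *Irak3*, *Ifng*, *Map4k4*, *Fhl2*, *Mrps9* and markers without a call were named after their values were seen.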

Additional observations from a re-analysis of the deposited data

How the results depend on the processing

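Of the 8 members, all kept their direction and their side of the threshold under RLE size factors, library size alone, DESeq2 and a filter of at least 10 counts in every library. In limma-voom *Il1rn* had a log2 fold change of -0.93 (adjusted p = 0.0648). Without a filter on low counts 3732 of 28512 genes and 5 members were called, since *Il1rl1* (1.09, adjusted p = 0.0126) and *Il18r1* (-0.32, adjusted p = 0.0221) passed, and 4 genes of the chromosome 1 row; the cause was not tested. With at least 10 counts in every library 1 gene of that row was called, *Il1r1* no longer being tested. At an adjusted p under 0.01, 453 genes and 1 member, *Sigirr*, were called. No member shared 10% of its sequence with other genes, so summing counts with such genes gave no value.

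With replicate number as a block, 1235 genes, 1 member and 0 genes of the chromosome 1 row were called, with *Il1rn* at -0.95 (adjusted p = 0.0686), *Il1rl2* at 0.86 (adjusted p = 0.0584) and *Il1r1* at 1.72 (adjusted p = 0.079). In the same fit 4 genes of the NF-κB list were called. Whether equal numbers share a mouse or a day is not given in the sources used here. Deviations from the group mean correlated across genes at 0.0534, -0.0340 and -0.237 for replicates 1, 2 and 3. Across the groups, replicate 1 of the scrambled ASO was the only library that correlated best with its own number. Replicate 2 of the scrambled ASO correlated best with replicate 3 of the *Pgam* ASO (0.280), and replicate 3 of the scrambled ASO with replicate 1 of the *Pgam* ASO (0.218).

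With each library left out in turn, 391 (without replicate 2 of the *Pgam* ASO) to 3484 genes were called (without replicate 3 of the scrambled ASO), 1 to 3 members, 0 to 3 genes of the row and 11 to 33 of the 71 tested genes of the pathway lists, where 26 were called with all libraries. The row's counts and the left-out counts of the lists were added after seeing the data. Log2 fold changes ran from 0.77 to 1.02 for *Il1rl2*, 0.69 to 1.41 for *Il1rl1* (1 call gained, without replicate 3 of the scrambled ASO), -0.16 to -0.027 for *Il1rap*, -0.50 to -0.16 for *Il18r1*, -0.24 to -0.0016 for *Il18rap*, -0.29 to 0.0084 for *Il1r2*, -1.25 to -0.82 for *Il1rn* and -0.48 to -0.45 for *Sigirr*. The calls of *Il1rl2* and *Il1rn* were lost in 2 and 5 of these 6 fits, where fewer libraries were tested. Depth limits the genes with few counts, such as *Il1r1* with 5 to 39 counts a library.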

Other observations

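For each member the 3 genes with the highest Pearson r of log2 CPM over the 6 libraries were taken from 9568 genes with a mean log2 CPM of at least 3. The 6 libraries share 1 difference between groups and many genes were searched, so r is given as a description. *Sigirr* was most like *Igf2r* (r = 0.999, log2 fold change -0.81), *Cd9* (r = 0.999, -1.45) and *Lrig1* (r = 0.997, -0.86). *Il1rn* was most like *Prkca* (r = 0.994, log2 fold change -0.13), *Eomes* (r = 0.993, -0.82) and *Ctsc* (r = 0.991, -0.20). *Il1rl1* was most like *Ube2c* (r = 0.997), *Praf2* (r = 0.997) and *Snrpd1* (r = 0.996), and *Il1rl2* most like *Grb2* (r = 0.997), *Ppp1r3e* (r = 0.994) and *Usp25* (r = 0.991).

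*Il18r1* was most like *Ankrd44* (r = 0.998), *Polr3gl* (r = 0.997) and *Podnl1* (r = 0.995), and its partner chain *Il18rap* most like *Pcsk7* (r = 0.977), *Dido1* (r = 0.972) and *R3hdm2* (r = 0.968). *Il1r2* was most like *Sec23a* (r = 0.980), *Chp1* (r = 0.980) and *Tnfrsf13b* (r = 0.978), and *Il1rap* most like *Pex5* (r = 0.981), *Ubr4* (r = 0.977) and *Zfp335* (r = 0.963).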
